A study of Mus musculus with 7 samples.

Results

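Klf2, Klf4 and Klf6 are 3 of the 19614 genes in the count tables of a single-cell RNA-seq study of mouse cortex, and they were followed across cell classes, genotypes and cortical areas. They were taken by name, and they had been chosen because their levels differed between the genotypes in opposite directions in endothelial cells and in neurons. The genotype values below are therefore a description of what chose them and carry no test. In all, 20554 unique molecular identifiers (UMIs, counted RNA molecules) of Klf2, 14396 of Klf4 and 16934 of Klf6 were recorded.

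In the DTA genotype (Opn4-Cre/+; Brn3b-zDTA/+) diphtheria toxin A is directed at the melanopsin cells of the retina (ipRGCs) that also use Brn3b. The CTRL genotype (Opn4-Cre/+; Brn3b-+/+) keeps these cells and carries the Cre allele too. All mice were B6129SF1/J, were aged P30 and lived in 12 h of light and 12 h of dark. The ventromedial prefrontal cortex (PFC) gave 3 DTA and 2 CTRL libraries, and the motor cortex (MC) gave 1 DTA and 1 CTRL library. The ablated cells lie in the retina, which was not measured, so the tables hold no check of the ablation. The labels do not say how many animals entered a library, and p-values below measure only the spread between libraries.

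Klf2, Klf4 and Klf6 encode zinc finger transcription factors of the Kruppel-like family, which bind GC-rich and CACCC-containing DNA. In endothelium Klf2 and Klf4 are raised by the shear stress of flowing blood through the kinases MEKK3, MEK5 and ERK5 and the MEF2 factors, and they keep the vessel wall anti-inflammatory and anticoagulant. Klf4 is also known as a reprogramming factor and, like Klf6, as an early response gene in many cell types, including neurons and glia.

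The promoters are shown because the 3 genes share much of their expression pattern, and because the pathway named above ends on a MEF2 element. Klf2 lies on chromosome 8 (chr8:72319033-72321656, plus strand, 3 exons), Klf4 on chromosome 4 (chr4:55527143-55532466, minus strand, 5 exons) and Klf6 on chromosome 13 (chr13:5861482-5870394, plus strand, 4 exons), in the mm10 gene annotation. The 250 bases before each RefSeq start are printed 5′ to 3′ on the strand of the gene, from RefSeq on GRCm38.p6. They cover chr8:72318812-72319061 for Klf2, chr4:55532476-55532725 for Klf4 and chr13:5861239-5861488 for Klf6. Capitals mark a match to the MEF2 element.
Klf2: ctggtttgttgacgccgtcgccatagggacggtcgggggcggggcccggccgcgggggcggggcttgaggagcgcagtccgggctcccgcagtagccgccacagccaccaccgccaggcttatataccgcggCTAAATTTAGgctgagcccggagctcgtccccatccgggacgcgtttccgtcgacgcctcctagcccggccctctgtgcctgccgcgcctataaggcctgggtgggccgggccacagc
Klf4: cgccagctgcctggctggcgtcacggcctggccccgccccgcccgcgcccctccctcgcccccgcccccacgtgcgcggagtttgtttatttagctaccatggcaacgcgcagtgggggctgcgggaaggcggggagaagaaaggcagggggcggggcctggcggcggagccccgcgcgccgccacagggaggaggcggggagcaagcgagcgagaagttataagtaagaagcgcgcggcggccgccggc
Klf6: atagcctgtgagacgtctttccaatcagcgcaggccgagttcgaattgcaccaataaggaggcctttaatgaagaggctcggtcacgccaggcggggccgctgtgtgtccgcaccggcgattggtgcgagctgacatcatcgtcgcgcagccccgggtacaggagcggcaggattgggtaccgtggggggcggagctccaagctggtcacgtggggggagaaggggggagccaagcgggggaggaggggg
The Klf2 window held 1 MEF2 element, at -118 to -109 from the start, and such an element stood in 2.92% of 32851 promoter windows. The Klf4 and Klf6 windows held no match to it. GC boxes (GGGCGG on either strand) numbered 2 in Klf2, 4 in Klf4 and 1 in Klf6, and 32.7% of all windows held at least 1. CACCC boxes (CCNCNCCC on either strand, which can overlap a GC box) numbered 4, 9 and 2 in the same order, and 45.9% of windows held 1. The serum response CArG box (1.47% of windows), the cyclic AMP element TGACGTCA (1.55%) and the AP-1 site TGANTCA (6.75%) were in none of the 3 windows. G and C made up 71.2% of the Klf2 window, 74.0% of the Klf4 window and 64.8% of the Klf6 window, against a median of 52.4%. These matches describe the letters of the windows and do not show binding.

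The 7 libraries held 1936 to 9879 cells and 6180059 to 30972905 UMIs. Median UMIs per cell were over 4000 in PFC DTA replicate 2, PFC CTRL replicate 1 and MC DTA, here called the deep libraries, and 1360 to 2642 in the other 4. Of the cell barcodes, 602 occurred in more than 1 library, at most 92 in a pair. The cells were clustered and named by markers, and 8 classes reached 30 cells in each library, among them 1667 endothelial cells in 1 cluster (140 to 401 per library) and 2890 inhibitory neurons (116 to 1157). The endothelial name rests on 8 markers such as Cldn5 and Pecam1, which together made up 19360 to 26850 CPM of the endothelial UMIs (CPM are counts scaled to a total of 1000000). Another 3567 cells stayed unnamed, 2288 of them in PFC DTA replicate 3. All 3 genes were among the variable genes used for the clustering, so their differences between classes are a description. CPM are given per class and library, and they compare 1 gene between cells, not 1 gene with another.

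Klf2 was by far highest in endothelial cells. Endothelial Klf2 was at 3621, 2533 and 3274 CPM in PFC DTA replicates 1 to 3, 7552 and 3638 CPM in PFC CTRL replicates 1 and 2, 3448 CPM in MC DTA and 2927 CPM in MC CTRL. The mean of 3856 ± 1677 CPM (SD, n = 7 libraries) was 60.5 times that of microglia, the next class, at 63.7 ± 29.7 CPM. No microglial value reached the lowest endothelial one. Oligodendrocyte precursors followed with 13.7 to 103 CPM, and astrocytes, oligodendrocytes, newly formed oligodendrocytes and both classes of neurons each had means of at most 11.2 CPM. Below endothelium, each class overlapped with the next in the order.

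Among the 8 classes Klf4 was also highest in endothelial cells, with oligodendrocytes second. Rarer cells like vascular smooth muscle and pericytes, given below, lay above oligodendrocytes. Endothelial Klf4 was at 1291, 1292 and 2113 CPM in PFC DTA, 2152 and 1743 CPM in PFC CTRL, 1436 CPM in MC DTA and 1609 CPM in MC CTRL. Its mean of 1662 ± 360 CPM was 7.57 times that of oligodendrocytes (220 ± 105 CPM, SD, n = 7 each), with no overlap. Oligodendrocytes lay above microglia (84.7 ± 34.3 CPM) in all 7 libraries when paired by library, though the ranges of both classes overlapped. Astrocytes spread from 9.40 to 196 CPM, and newly formed oligodendrocytes and precursors had means of 47.9 and 36.4 CPM. Inhibitory neurons averaged 18.7 ± 20.9 CPM and excitatory neurons 11.6 ± 8.76 CPM, the lowest 2 levels.

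Klf6 was the most evenly spread of the 3 over the 8 classes. Endothelial Klf6 was at 449, 523 and 1158 CPM in PFC DTA, 1099 and 669 CPM in PFC CTRL, 567 CPM in MC DTA and 537 CPM in MC CTRL. The endothelial mean of 715 ± 291 CPM was 4.2 times that of microglia (170 ± 21.9 CPM), with no overlap. The other 6 classes had means between 81.3 CPM in excitatory neurons and 121 CPM in oligodendrocyte precursors, and neighbours in that order overlapped. Every class thus held Klf6 well above 0, whereas Klf2 in newly formed oligodendrocytes ranged from 0 to 7.70 CPM.

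**Figure D1:**
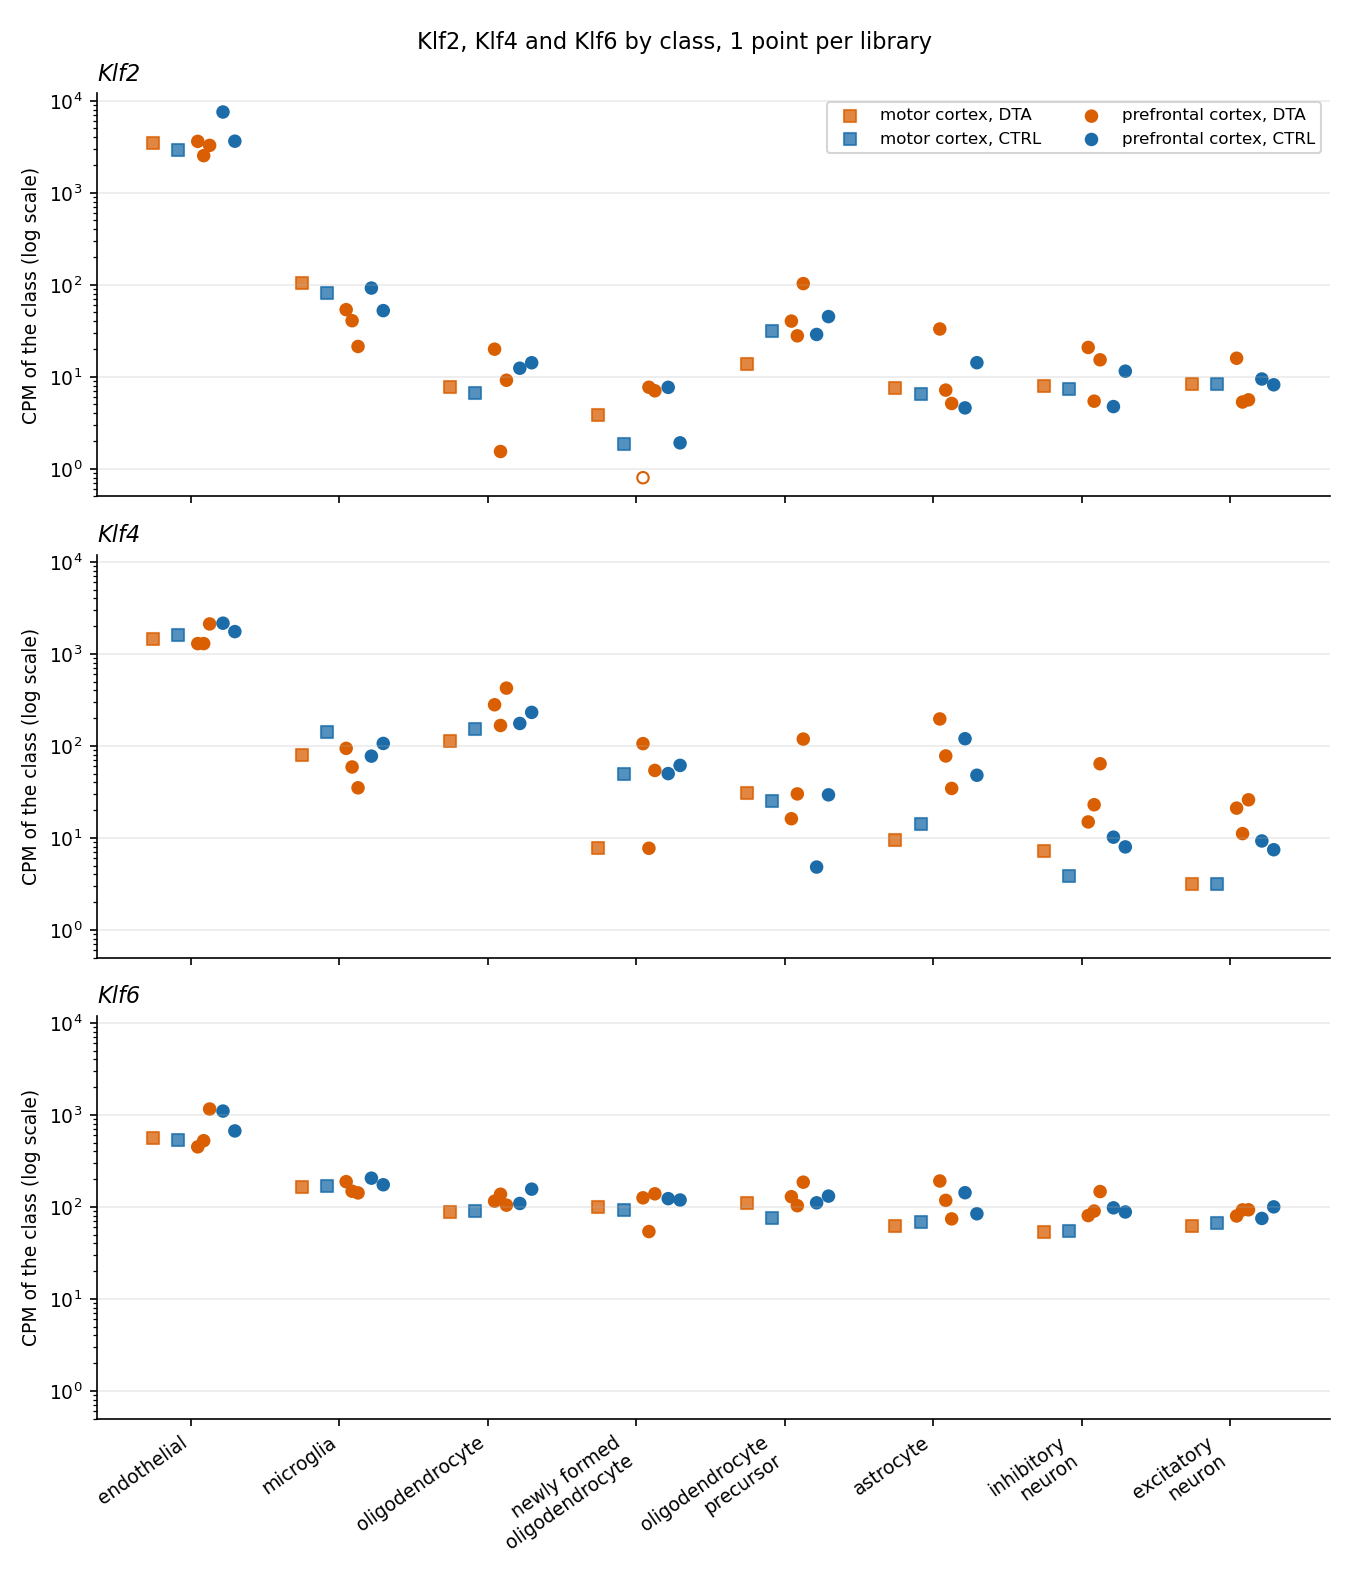
CPM of Klf2, Klf4 and Klf6 (log axis) in 8 classes, 1 point per library, with circles for the PFC and squares for the MC. Within a class the MC lies left of the PFC, and within an area DTA (orange) lies left of CTRL (blue). An open point at the bottom stands for 0. Endothelial points lie above all other classes for each gene, from 2533 to 7552 CPM for Klf2, 1291 to 2152 CPM for Klf4 and 449 to 1158 CPM for Klf6.

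The endothelial cells were 2.42 to 10.1% of the cells of a library and 1.93 to 5.19% of its UMIs. They held 64.7 to 83.6% of a library's Klf2 UMIs, 29.2 to 69.3% of its Klf4 UMIs and 12.99 to 28.5% of its Klf6 UMIs. Most Klf2 UMIs of the captured cells were thus endothelial in each library, and most Klf6 UMIs lay in other cells. Captured cells need not stand in the proportions of the tissue.

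Other cells of the vessel wall, too few in some libraries for the 8 classes, are given as sums over all libraries with 95% Poisson intervals, which cover counting error only. In 220 cells like vascular smooth muscle Klf4 stood at 1301 CPM (1210 to 1397), Klf2 at 910 CPM (834 to 990) and Klf6 at 431 CPM (379 to 487). In 551 cells like pericytes Klf4 stood at 677 CPM (624 to 733), Klf2 at 193 CPM (165 to 224) and Klf6 at 329 CPM (292 to 369). Smooth muscle was thus above pericytes for all 3 genes in these sums. Endothelial markers were the second class of the smooth muscle cluster (score 0.17), and the pericyte cluster had no second class. The part of endothelial RNA in these levels was not tested. The 145 fibroblast-like cells had 889 CPM of Klf2 (797 to 990), 239 CPM of Klf4 and 167 CPM of Klf6. The 183 cells like perivascular macrophages had 396 CPM of Klf2, 291 CPM of Klf4 and 577 CPM of Klf6.

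After each cell was thinned to 1000 UMIs, 89.6% of 1339 endothelial cells had a UMI of Klf2 (95% exact binomial interval 87.9 to 91.2), 68.1% of Klf4 (65.5 to 70.6) and 42.9% of Klf6 (40.3 to 45.6). The 328 shallower endothelial cells were left out, and median depth was 2282 UMIs. Unthinned, the shares were 91.7%, 74.99% and 59.9%. By library the thinned shares ran from 84.7 to 99.3% for Klf2, 58.1 to 79.4% for Klf4 and 31.6 to 63.2% for Klf6. Among 2630 inhibitory neurons (median 4242 UMIs, 260 left out) the thinned shares were 0.989%, 1.03% and 6.88%. Scaled by the endothelial marker UMIs found in the same neurons, endothelial RNA would bring 5.12 of 7, 7.73 of 14 and 3.89 of 29 Klf2 UMIs in inhibitory neurons of PFC DTA, and 6.42 of 7 and 27.8 of 39 in PFC CTRL. Among oligodendrocytes 16.7% had a UMI of Klf4 and 0.96% one of Klf2, so Klf4 there stood far above the Klf2 share.

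**Figure D2:**
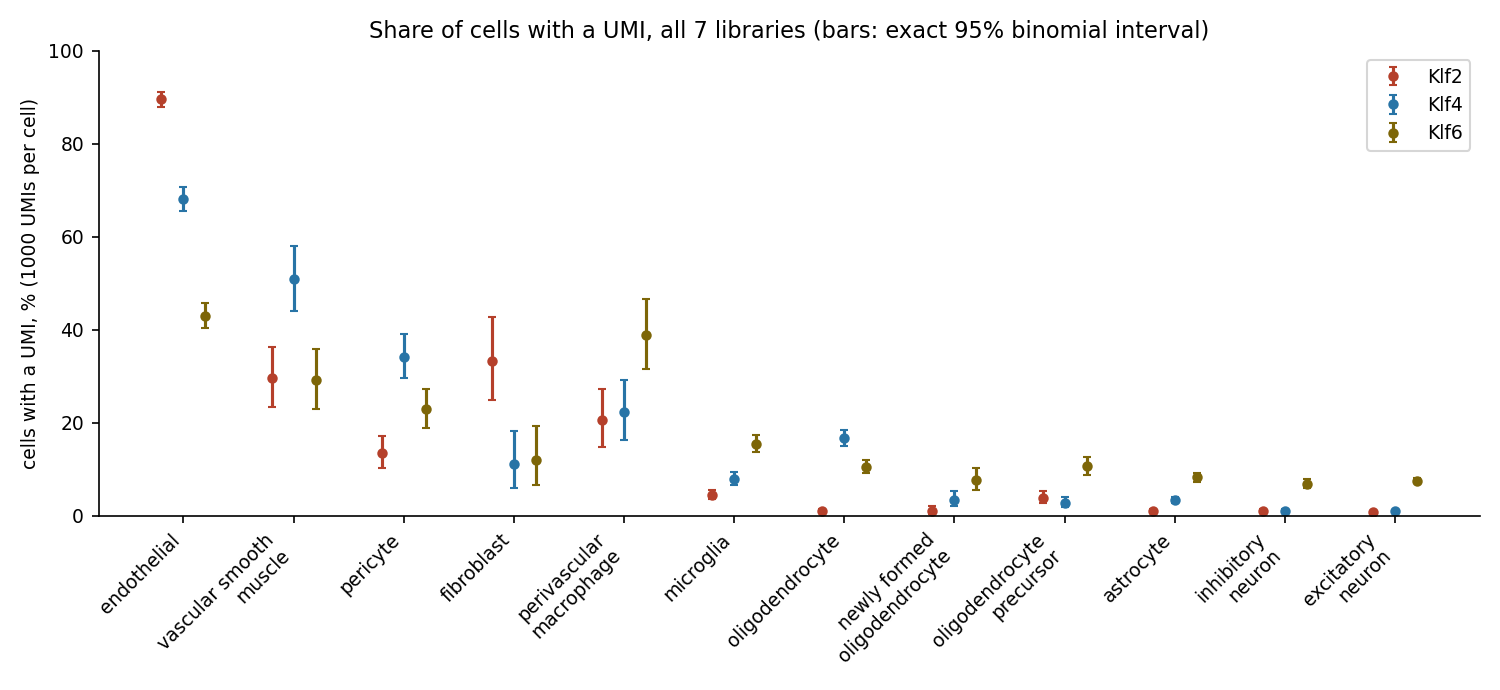
Percent of cells with a UMI of each gene after thinning to 1000 UMIs per cell, over all 7 libraries, by class, with exact 95% binomial intervals. Endothelial cells stand highest for all 3 genes, at 89.6% for Klf2, 68.1% for Klf4 and 42.9% for Klf6.

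Within endothelium Klf4 was found more often beside each of the other transcripts than without it, over all libraries, whereas Klf2 and Klf6 went together little. In thinned cells Klf4 was found in 70.6% of 1200 cells with a Klf2 UMI and in 46.8% of 139 cells without one. Klf6 was found in 47.5% of 912 cells with Klf4 and in 33.3% of 427 cells without it. Klf2 was found in 90.8% of 575 cells with Klf6 and in 88.7% of 764 cells without it, and in 4 of 7 libraries its share was lower beside Klf6. The share of Klf4 was higher beside Klf2 in each of the 7 libraries, although in PFC CTRL replicate 1 a single cell lacked Klf2 and in PFC DTA replicate 3 the shares were 71.4% and 70.0%. Cells share a library and a thinned depth, so no test was made. A thinned cell was given a vessel zone if it had a UMI of that zone's markers and none of the other zones' markers. A single UMI could thus decide the zone. By this rule 26 cells were called arterial and 580 capillary, and Klf2 was found in 88.5% of the arterial and 90.2% of the capillary cells. Klf4 was found in 69.2% of the arterial and 66.7% of the capillary cells, and Klf6 in 46.2% and 40.5%. With 4 venous cells, veins could not be described.

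Likeness across samples is given as Pearson's r of log2(CPM + 1) over 56 sums, 8 classes by 7 libraries, which share libraries and are not independent. By level, the genes most like Klf2 were Nes (r = 0.922), Tinagl1 (0.91), Gimap1 (0.905), Icam2 (0.905) and Ly6a (0.901). Those most like Klf4 were Capns1 (0.896), Klf6 (0.862), Myl12a (0.852), Ctnna1 (0.845) and Triobp (0.839). Those most like Klf6 were Rassf1 (0.89), Klf2 (0.88), Acvrl1 (0.873), Elk4 (0.869) and Actg1 (0.869).

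With the mean of each class taken away, what is left is variation between libraries within classes. Klf4 then went most with Fos (0.803), Jun (0.728), Ppp1r15a (0.722), Klf6 (0.696) and Fosb (0.682), of which Fos, Fosb and Jun encode AP-1 subunits and Ppp1r15a a stress-induced phosphatase subunit. Klf6 went most with Klf4 (0.696), Nit2 (0.633), Saraf (0.628), Ppp1r15a (0.626) and Dusp1 (0.624), an early response phosphatase. Klf2 went most with Ociad1 (0.55), Rmnd5b (0.528), Mfsd1 (0.519), Cd2ap (0.511) and Mrpl9 (0.508). The correlation of Klf2 with Klf4 was 0.184 and with Klf6 0.232, so in these sums Klf4 and Klf6 moved together and Klf2 moved with neither to that degree.

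Between genotypes in the PFC, endothelial Klf2 was lower in all 3 DTA libraries than in both CTRL libraries. The DTA libraries had 3621, 2533 and 3274 CPM, against 7552 and 3638 CPM in CTRL. DTA replicate 1 and CTRL replicate 2 lay almost together, and CTRL replicate 1 stood far above the rest. The means were 3142 ± 556 CPM in DTA and 5595 ± 2767 CPM in CTRL (SD, n = 3 and 2), and the fitted log2 fold change (edgeR) was -0.85 with a standard error (SE) of 0.34. Among deep libraries the log2 ratio of DTA to CTRL was -1.58, and among the others it was -0.08. Without CTRL replicate 1 the fitted change was -0.08, and without CTRL replicate 2 it was -1.32. Of 6907 endothelial genes with at least 50 counts, 7.91% had every DTA library below both CTRL libraries and 6.3% every one above, and 0.0% of 7094 genes tested passed an adjusted p of 0.05. At an unadjusted p under 0.05 there were 115 such genes, and DESeq2 called 0 after adjustment.

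Haemoglobin genes of red blood cells moved with that library. Their summed level in endothelial cells was 2716, 6436 and 2497 CPM in DTA, against 12930 and 3363 CPM in CTRL, and its part in the Klf2 values was not tested. Summed endothelial markers were 19360 to 26850 CPM in DTA and 22790 to 24690 CPM in CTRL. The other transcripts in the same cells overlapped between genotypes. Endothelial Klf4 averaged 1566 ± 474 CPM in DTA and 1947 ± 289 CPM in CTRL, a log2 fold change of -0.31 (SE 0.29), with -0.74 among deep and -0.03 among other libraries. Endothelial Klf6 averaged 710 ± 390 CPM in DTA and 884 ± 304 CPM in CTRL, a log2 fold change of -0.32 (SE 0.44), with -1.07 among deep and 0.27 among other libraries. CTRL replicate 1 was highest for Klf2 and Klf4, and DTA replicate 3 for Klf6.

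In inhibitory neurons of the PFC, Klf4 was higher in all 3 DTA libraries than in both CTRL libraries. The levels were 14.9, 22.9 and 63.8 CPM in DTA, against 10.2 and 7.97 CPM in CTRL. They rest on 5, 59 and 121 UMIs in DTA and on 15 and 27 UMIs in CTRL. DTA replicate 3 alone carried most of the distance between the means of 33.9 ± 26.2 CPM in DTA and 9.07 ± 1.55 CPM in CTRL. The fitted log2 fold change was 2.17 (SE 0.61), 1.31 without DTA replicate 3, and 1.34 with the replicate number as a block. The log2 ratio was 1.17 among deep and 2.30 among other libraries. Of 10618 genes with at least 50 counts, 6.37% had every DTA library above both CTRL libraries, and 0.0% of 10943 tested genes passed the adjusted threshold (445 had a raw p under 0.05, and DESeq2 called 0).

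Klf4 was highest in DTA replicate 3 within each of the 4 inhibitory clusters, at 52.5 CPM in the cluster led by Vip, 94.3 CPM in that of Pvalb, 64.4 CPM in that of Sst and 14.1 CPM in that of Npy, where it rests on 3 UMIs (95% Poisson interval 2.91 to 41.3 CPM). All DTA libraries lay above both CTRL libraries in the Pvalb and Sst clusters. There DTA replicate 1 rests on 1 UMI in Pvalb cells (9.70 CPM, 0.246 to 54.1) and 4 UMIs in Sst cells (39.6 CPM, 10.8 to 101). CTRL had 7.73 and 8.76 CPM in Pvalb cells, inside that interval. The share of all genes with this order within a cluster was not counted. In the Vip cluster DTA replicates 1 and 2 had 0 and 10.6 CPM, against 13.8 and 7.81 CPM in CTRL, and in the Npy cluster both had 0 UMIs. The highest sum of early response genes was in the same library. The summed level of 29 immediate early and dissociation genes in inhibitory neurons was 1913, 1474 and 4758 CPM in DTA, against 1792 and 1183 CPM in CTRL, so the genotypes overlapped, and its part was not tested. Of 25 of these genes tested, 22 lay above 0 and 0 were called, with a median log2 fold change of 0.71 beside 0.005 over all genes tested. Ier3 was at 0.70 (SE 0.29) and Ier5 at 0.65 (SE 0.27), the 2 with the smallest p. The 2 other transcripts overlapped between genotypes, with log2 fold changes of 0.38 (SE 0.49) for Klf2 and 0.30 (SE 0.23) for Klf6.

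RNA shed by endothelial cells would bring Klf2 and Klf4 in the endothelial ratio. In endothelium the ratio of Klf4 to Klf2 UMIs was 0.285 to 0.646. In inhibitory neurons it was 0.714, 4.21 and 4.17 in PFC DTA, 2.14 and 0.692 in PFC CTRL, 0.905 in MC DTA and 0.524 in MC CTRL. Endothelial markers in the same neurons summed to 113, 27.9 and 12.1 CPM in PFC DTA, against 14.2 and 51.3 CPM in PFC CTRL. Scaled by the marker UMIs to the Klf4 of the same library's endothelium, endothelial RNA would carry 1.83, 3.94 and 2.51 Klf4 UMIs in PFC DTA, where 5, 59 and 121 were counted. It would carry 1.83 and 13.3 in PFC CTRL, where 15 and 27 were counted. Klf4 RNA from other classes was not scaled in this way. In PFC DTA replicate 3 oligodendrocytes held 29.8% of the Klf4 UMIs, endothelium 29.2% and unnamed cells 9.40%. The part of RNA shed by any class in the neuronal values was not tested. Of inhibitory neurons thinned to 1000 UMIs, 3.03% (exact 95% interval 0.629 to 8.60), 2.14% (0.790 to 4.61) and 4.35% (2.10 to 7.85) had a Klf4 UMI in PFC DTA. In PFC CTRL 0.658% (0.0167 to 3.61) and 0.603% (0.222 to 1.31) had one.

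In excitatory neurons Klf4 was likewise higher in all 3 PFC DTA libraries than in both CTRL libraries. Klf4 was at 21.0, 11.1 and 25.9 CPM in DTA, against 9.24 and 7.42 CPM in CTRL. Such an order was found for 5.0% of 13510 genes with at least 50 counts, and 0.0% of 13868 tested genes passed the adjusted threshold (258 had a raw p under 0.05, and DESeq2 called 0). The means were 19.4 ± 7.54 CPM in DTA and 8.33 ± 1.29 CPM in CTRL, and the log2 fold change was 1.25 (SE 0.36), with 0.27 among deep and 1.66 among other libraries. Klf2 and Klf6 had log2 fold changes of -0.10 (SE 0.46) and 0.06 (SE 0.16) there, and their groups overlapped.

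Among glia, no transcript separated the PFC genotypes. Microglial Klf2 was at 53.6, 40.7 and 21.4 CPM in DTA and 92.1 and 52.4 CPM in CTRL, a log2 fold change of -0.84 (SE 0.45). Microglial Klf4 was at 93.8, 58.9 and 34.95 CPM in DTA and 77.3 and 106 CPM in CTRL (-0.56, SE 0.40). Different clusters held most microglia in different libraries, cluster 10 in PFC DTA replicate 1 (98.5%) and PFC CTRL replicate 2 (97.1%) and cluster 16 in PFC DTA replicate 2 (82.9%) and PFC CTRL replicate 1 (75%). Oligodendrocyte Klf4 was at 279, 166 and 424 CPM in DTA and 175 and 231 CPM in CTRL, a log2 fold change of 0.59 (SE 0.37). Klf4 in oligodendrocyte precursors was at 16.1, 30.02 and 118 CPM in DTA and 4.81 and 29.3 CPM in CTRL (1.60, SE 0.90). Over 24 pairs of gene and class, 1 had all DTA libraries below CTRL and 2 had all above, whereas 14.2 to 18.6% of all genes with at least 50 counts did not overlap either way in a class.

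The MC had 1 library of each genotype and no test was made there, and the 95% intervals of log2 ratios cover counting error only. MC DTA is a deep library and MC CTRL is not, so genotype and depth cannot be told apart there. Endothelial Klf2 was at 3448 CPM in DTA, against 2927 CPM in CTRL, a log2 ratio of 0.24 (0.15 to 0.32), so its order in the MC was the opposite of that in the PFC. Endothelial Klf4 had a log2 ratio of -0.16 (-0.28 to -0.05) and Klf6 one of 0.08 (-0.12 to 0.27). Klf4 in inhibitory neurons was at 7.21 CPM in DTA, against 3.82 CPM in CTRL, on 19 and 11 UMIs, a log2 ratio of 0.92 (-0.23 to 2.14). Klf4 in excitatory neurons was at 3.11 CPM in DTA, against 3.17 CPM in CTRL, a log2 ratio of -0.03 (-0.68 to 0.62). Klf4 was lower in DTA in oligodendrocytes (112 CPM, against 151 CPM in CTRL, log2 ratio -0.43, -0.71 to -0.17) and in microglia (80.0 CPM, against 142 CPM in CTRL, log2 ratio -0.83, -1.34 to -0.33). Cluster 16 held 83.7% of the microglia in MC DTA, and cluster 10 held 96.8% of them in MC CTRL.

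**Figure D3:**
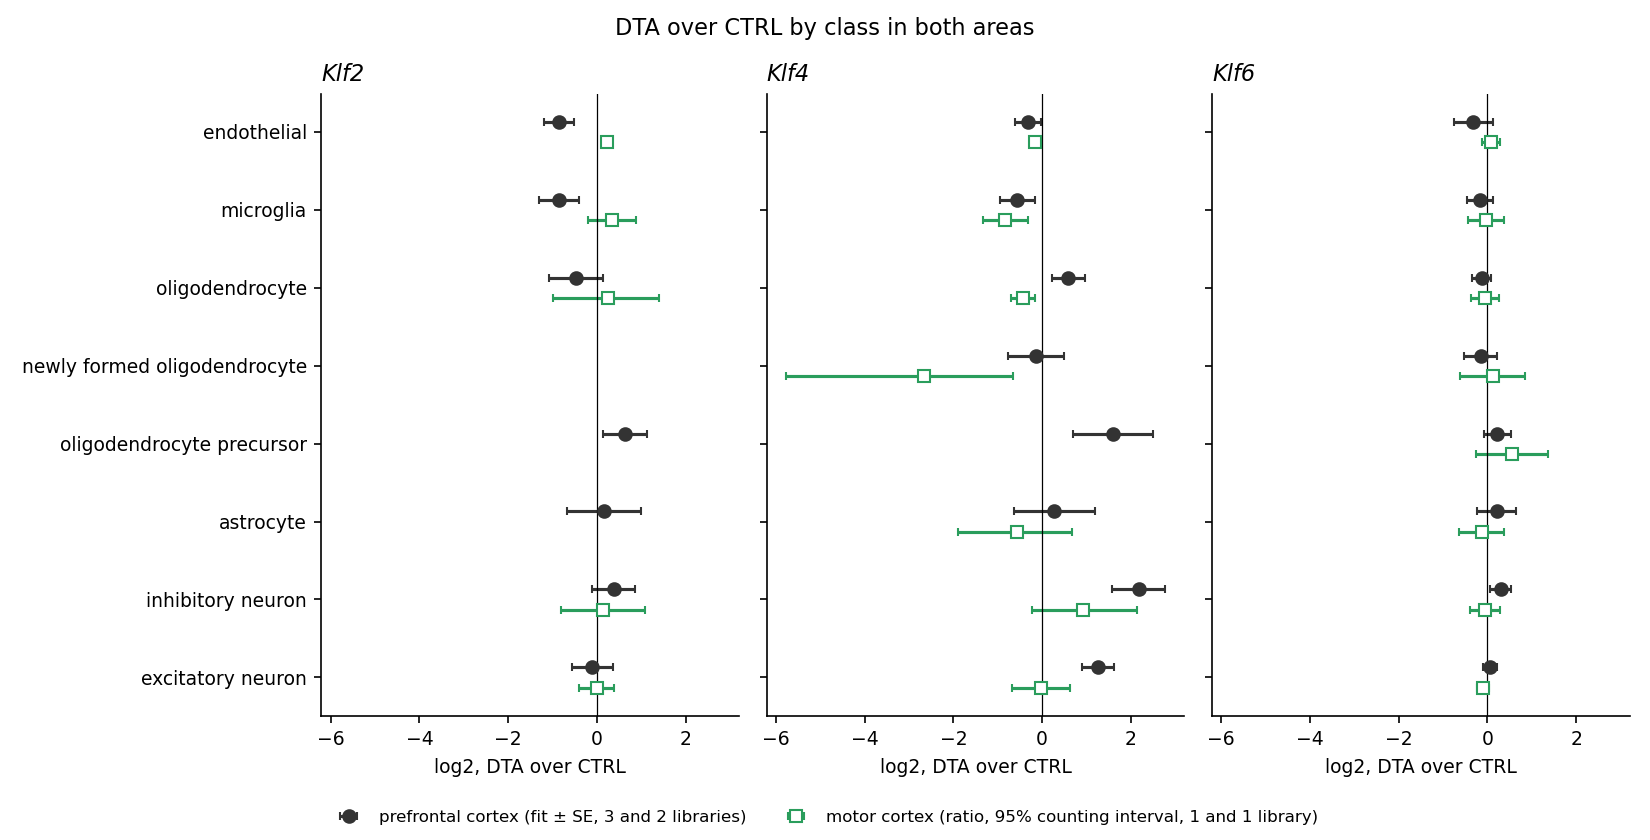
Log2 of DTA over CTRL for Klf2, Klf4 and Klf6 in 8 classes, as the PFC fit with its SE (filled circles, 3 and 2 libraries) and as the MC ratio with its 95% counting interval (open squares, 1 and 1 library, drawn where at least 20 UMIs were counted). In the PFC endothelial Klf2 stands at -0.85 and inhibitory Klf4 at 2.17, and in the MC endothelial Klf2 stands at 0.24.

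The areas were compared over all 7 libraries with genotype as a term, using the quasi-likelihood test of edgeR, and p-values were adjusted over all genes of a class after Benjamini and Hochberg. This comparison did not choose the 3 genes, but it uses the same PFC libraries. A choice by high PFC DTA values in neurons can raise the PFC side of it. The adjusted p-values do not allow for that choice. Of 24 pairs of gene and class 22 were tested, and 2 were called, both lower in the MC. Klf4 fell in excitatory neurons of the MC and Klf6 fell in inhibitory neurons of the MC. In excitatory neurons 5.54% of 14125 genes were called, 3.07% higher and 2.46% lower in the MC. In inhibitory neurons 2.19% of 11583 genes were called, 1.23% higher and 0.958% lower. The called share was 0.218% in astrocytes (0.0989% higher and 0.119% lower), 0.011% in oligodendrocytes and 0.0386% in newly formed oligodendrocytes, higher in the MC in both, and 0.0% in oligodendrocyte precursors, microglia and endothelium.

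Klf4 in excitatory neurons was at 3.11 and 3.17 CPM in the MC, against 21.0, 11.1, 25.9, 9.24 and 7.42 CPM in the PFC. Both MC libraries lay below every PFC library. The log2 fold change of MC over PFC was -2.0 (SE 0.43, adjusted p = 0.034). The call was lost without excitatory cluster 11, a choice made after seeing the clusters, with a log2 fold change of -1.34 (SE 0.52, adjusted p = 0.251). It was also lost without a filter on low counts (adjusted p = 0.0735), without the genotype term (0.103), and without PFC DTA replicate 1 (0.0604), PFC CTRL replicate 1 (0.0842), MC DTA (0.464) or MC CTRL (0.085). Endothelial RNA, scaled in the same way by marker UMIs as set out above, would bring 18.0 of 38 Klf4 UMIs in MC DTA and 39.3 of 47 in MC CTRL, and for 10.4 of 74, 26.3 of 238, 25.4 of 392, 14.6 of 85 and 39.8 of 136 in the PFC libraries.

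Cluster 11 is led by Gadd45g, Npas4, Ptgs2, Egr4, Rgs2, Nnat, Arl4d, Mlip, Tesc and Bdnf. Several of these, such as Npas4 and Egr4, are activity genes, and it is called the activity-gene cluster below. The cause of its unlike share in the areas was not tested. It took 3.56% of excitatory neurons in MC DTA and 1.003% in MC CTRL, 26 cells each, against 15.4, 18.7 and 17.0% in PFC DTA and 17.4 and 9.92% in PFC CTRL. Inside it Klf4 stood at 5.12 CPM in MC DTA and 10.97 CPM in MC CTRL, on 2 and 3 UMIs, against 60.1, 30.2 and 47.6 CPM in PFC DTA and 20.1 and 28.2 CPM in PFC CTRL. Outside it Klf4 stood at 3.04 and 3.02 CPM in the MC, against 11.3, 5.93, 18.2, 6.53 and 3.78 CPM in the PFC. In each PFC library Klf4 was thus higher inside the cluster than outside, and the MC still lay below every PFC library outside it. Klf4 helped to form the clusters, so a higher level inside is partly built in. Leaving the cluster out removes mostly PFC cells with high Klf4. With the 3 genes and early response genes left out of the clustering, no cluster was led by Npas4 or Egr4. A cluster of 741 excitatory neurons still had Ptgs2 and Bdnf among its leading genes. It held 54 cells in MC DTA and 20 in MC CTRL, against 20 to 328 in the PFC libraries. Without cluster 11 the PFC genotype difference of Klf4 was 1.27 (SE 0.50), near the value with it. The groups then overlapped, since DTA replicate 2 (5.93 CPM) lay below CTRL replicate 1 (6.53 CPM). Klf6 was at 104 to 136 CPM inside cluster 11 and 67.6 to 93.6 CPM outside it in the PFC, a smaller ratio than for Klf4 in each PFC library.

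**Figure D4:**
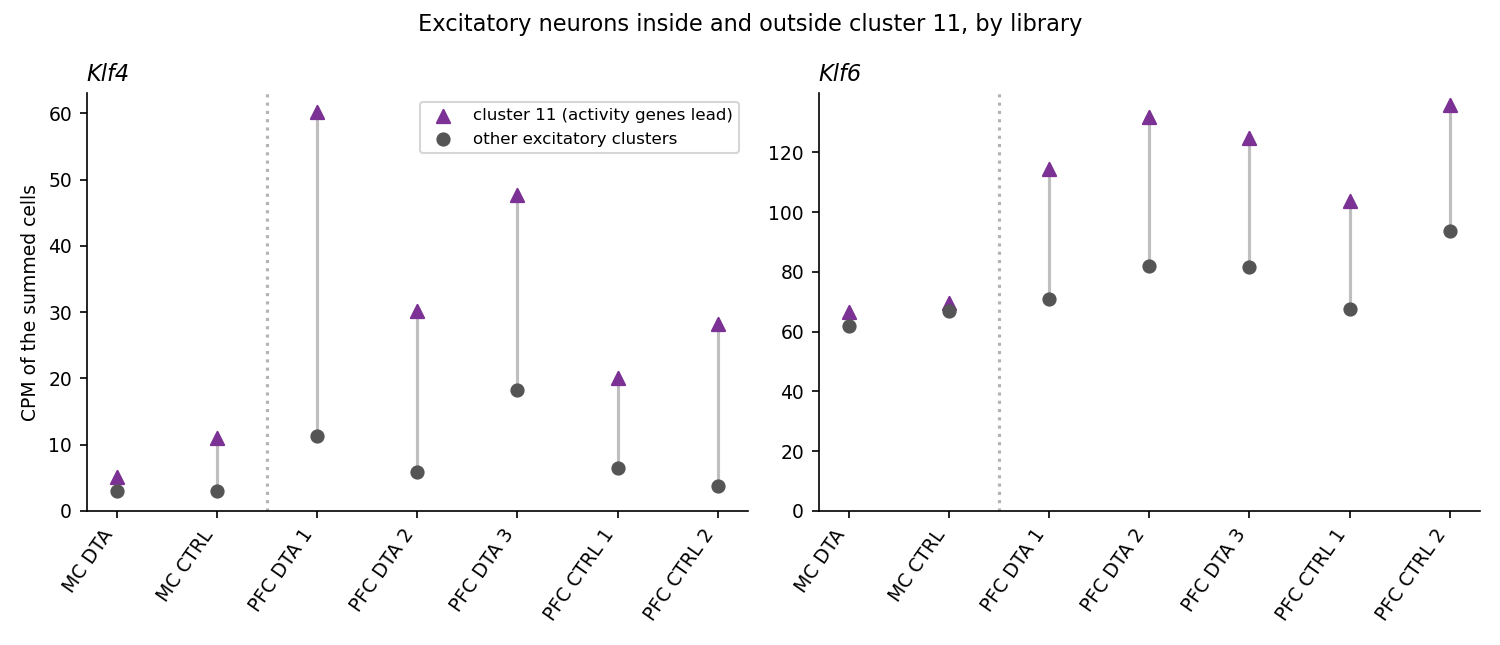
CPM of the genes in excitatory neurons inside cluster 11 (triangles) and outside it (circles), by library, with the MC left of the dotted line. Klf4 inside the cluster reaches 20.1 to 60.1 CPM in the PFC and lies at 3.78 to 18.2 CPM outside it.

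Klf6 in inhibitory neurons was at 52.8 CPM in MC DTA and 55.2 CPM in MC CTRL, against 80.3, 90.0 and 147 CPM in PFC DTA and 97.6 and 87.9 CPM in PFC CTRL. Both MC libraries lay below all PFC libraries. The log2 fold change of MC over PFC was -0.90 (SE 0.21, adjusted p = 0.0251). The call was lost without PFC CTRL replicate 1 (adjusted p = 0.0533), without MC DTA (0.738) and without MC CTRL (0.229). By cluster, the MC values were 77.0 and 74.1 CPM in Sst cells, against 109 to 176 CPM in the PFC, and 47.9 and 36.1 CPM in Pvalb cells, against 77.6 to 192 CPM in the PFC. In Vip cells MC DTA had 46.7 CPM and MC CTRL 89.6 CPM, against 63.7 to 114 CPM in the PFC, and in Npy cells the areas overlapped too. The lower MC level was thus in the Sst and Pvalb cells in both libraries. The Npy cluster, lowest in Klf6, held 19.3% of inhibitory neurons in MC DTA and 28.7% in MC CTRL, against 13.2 to 19.8% in the PFC, and the part of this difference in the Klf6 level was not tested.

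Klf4 in inhibitory neurons had nearly the same fold change as in excitatory neurons and was not called. It was at 7.21 and 3.82 CPM in the MC, against 7.97 to 63.8 CPM (median 14.9) in the PFC, a log2 fold change of -2.0 (SE 0.65, adjusted p = 0.204). DESeq2 called it (adjusted p = 0.0175), as did edgeR without a filter on low counts (2.72e-06), without PFC DTA replicate 2 (0.0346) and without PFC DTA replicate 3 (0.0283). Klf6 in excitatory neurons was at 62.2 and 67.0 CPM in the MC, against 74.8 to 99.9 CPM in the PFC, a log2 fold change of -0.44 (SE 0.13, adjusted p = 0.082), and DESeq2 called it (0.0499).

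**Figure D5:**
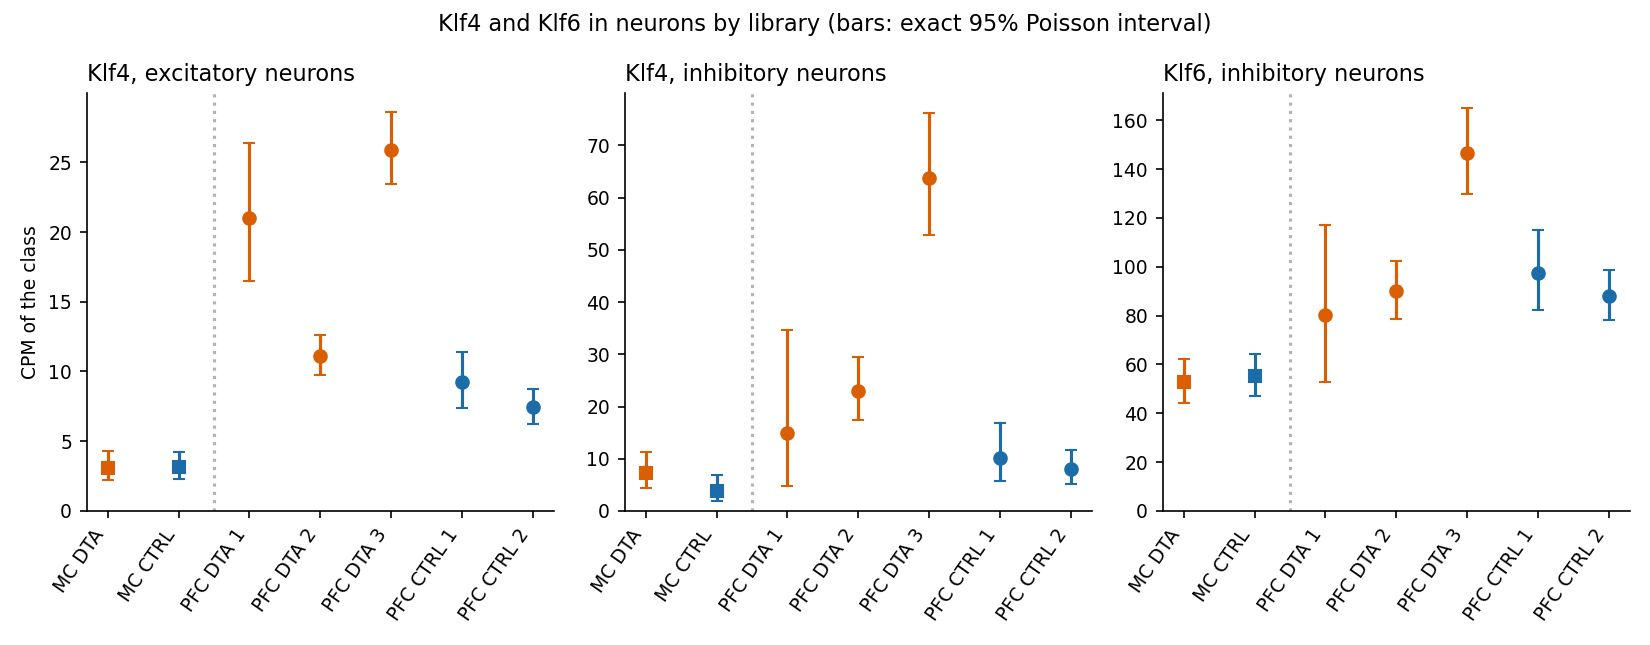
CPM of Klf4 in excitatory and inhibitory neurons and of Klf6 in inhibitory neurons, by library, with exact 95% Poisson intervals, squares for the MC at the left and circles for the PFC. MC points lie below all PFC points in each panel, at 3.11 and 3.17, 7.21 and 3.82, and 52.8 and 55.2 CPM.

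In all, both MC libraries lay below every PFC library in 8 of the 24 pairs, Klf4 and Klf6 in inhibitory neurons, excitatory neurons, astrocytes and oligodendrocytes. The share of genes with at least 50 counts that did so was 9.05% in inhibitory neurons, 11.1% in excitatory neurons, 7.78% in astrocytes and 4.6% in oligodendrocytes. Astrocyte Klf4 was at 9.40 and 14.0 CPM in the MC, against 34.4 to 196 CPM in the PFC (log2 fold change -2.87, SE 1.08, adjusted p = 0.625). Cluster 9 held 68.3% of the astrocytes in MC DTA and cluster 4 held 76.4% of them in MC CTRL, as the PFC libraries also differed. Oligodendrocyte Klf4 was at 112 and 151 CPM in the MC, against 166 to 424 CPM in the PFC (-0.86, SE 0.40, adjusted p = 1.0). Astrocyte Klf6 was at 62.0 and 67.9 CPM in the MC, against 74.0 to 191 CPM in the PFC, and oligodendrocyte Klf6 at 87.6 and 90.5 CPM in the MC, against 104 to 156 CPM in the PFC. None of these 4 passed the threshold.

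In endothelium and microglia the areas overlapped for all 3 transcripts. Endothelial log2 fold changes of MC over PFC were -0.33 (SE 0.36) for Klf2, -0.20 (SE 0.25) for Klf4 and -0.51 (SE 0.40) for Klf6, each with an adjusted p of 1.0. In the endothelial comparison 0.0% of 8116 genes were called, 120 at an unadjusted p under 0.05. Microglial Klf2 was at 103.5 and 82.1 CPM in the MC, against 21.4 to 92.1 CPM in the PFC, a log2 fold change of 0.93 (SE 0.39, adjusted p = 1.0).

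The summed level of early response genes in MC neurons lay below that of every PFC library. It was 2019 and 1536 CPM in excitatory neurons of the MC, against 2063 to 4041 CPM in the PFC, and in inhibitory neurons 1074 and 738 CPM in the MC, against 1183 to 4758 CPM in the PFC. Of 29 tested in excitatory neurons 1 fell, the stress-response gene Gadd45g (log2 fold change -1.89, adjusted p = 0.00398), beside 2.46% of all genes called lower, and the median was -0.69 beside -0.009 over all genes. Of 26 tested in inhibitory neurons 2 fell, the nuclear receptor gene Nr4a2 (-2.11, adjusted p = 0.0125) and Gadd45b (-1.15, adjusted p = 0.0444), beside 0.958% of all genes called lower, and the median was -1.23 beside 0.004. Their part in the Klf4 and Klf6 values was not tested. In endothelium, where the summed level was 19920 to 22880 CPM in the MC and 17500 to 23350 CPM in the PFC, 0 of 28 were called (Zfp36 at 0.36 and Hspa1b at -1.23).

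Of the wider Kruppel-like family, 9 other members reached 20 CPM in a class, Klf3, Klf5, Klf7, Klf9, Klf10, Klf11, Klf13, Klf15 and Klf16. In endothelium Klf9, a gene raised by glucocorticoids, averaged 466 CPM over the 7 libraries, Klf7 282 CPM, Klf13 276 CPM, Klf3 123 CPM, Klf10 121 CPM and Klf11 80.0 CPM. By area, Klf9 rose in inhibitory neurons of the MC (169 ± 9.23 CPM in the MC and 109 ± 14.9 CPM in the PFC, log2 fold change 0.68, SE 0.15, adjusted p = 0.0203). Klf5 fell in excitatory neurons of the MC (17.2 ± 4.28 CPM in the MC and 37.3 ± 5.13 CPM in the PFC, log2 fold change -1.13, SE 0.17, adjusted p = 0.00287). Of the other members tested, 10 of 11 lay below 0 in excitatory neurons (median -0.112 beside -0.009 over all genes) and 4 of 10 in inhibitory neurons (median 0.08 beside 0.004). By genotype 0 of the 7 other members tested in endothelium were called, with Klf16 at 0.34 (SE 0.58) and Klf13 at -0.15 (SE 0.30).

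The pathway above Klf2 and Klf4 and their known targets showed 0 called genes between genotypes in PFC endothelium, where the median over all genes was -0.018. Of 11 genes of the MEKK3, ERK5 and MEF2 pathway 4 lay above 0 and 7 below (median -0.043), with Mapk7, which encodes ERK5, at 0.45 (SE 0.43) and Map2k5, which encodes the kinase MEK5, at -0.34 (SE 0.36). All 7 flow sensor genes lay above 0 (median 0.24). Piezo1, a mechanically gated ion channel, averaged 49.5 ± 15.2 CPM in DTA and 30.9 ± 2.35 CPM in CTRL, a log2 fold change of 0.76 (SE 0.36, adjusted p = 1.0), and Gnaq, a G protein subunit gene, was at 0.44 (SE 0.28). Of 6 genes that Klf2 or Klf4 are known to raise, 5 lay above 0 (median 0.085), with Nov at 0.94 (SE 0.53) and the anticoagulant thrombomodulin gene Thbd at 0.22 (SE 0.25). Of 5 genes they are known to lower, 2 lay above 0 (median -0.165). Vcam1, a leukocyte adhesion gene, averaged 40.7 ± 29.9 CPM in DTA and 9.95 ± 10.8 CPM in CTRL (1.89, SE 0.76, adjusted p = 1.0), and Angpt2, a vessel growth factor gene, was at 1.09 (SE 0.69).

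Early response genes in PFC endothelium lay mostly below 0, as 20 of 26 did (median -0.234). Gadd45g was at -0.74 (SE 0.30) and Cyr61, a matrix signalling gene also raised by stretch, at -0.82 (SE 0.35). Their summed level overlapped, at 17500 to 23160 CPM in DTA and 22120 to 23350 CPM in CTRL. Of 4 leukocyte markers tested 2 lay above 0, with Tyrobp at 0.60 (SE 0.66) and Coro1a at -0.31 (SE 0.63), and their summed level was 54.9 to 188 CPM in DTA and 90.7 to 107 CPM in CTRL. Markers of vessel zones split as 4 of 7 arterial, 4 of 5 venous and 3 of 6 capillary genes above 0. Leading them by p were Stmn2 (-0.54) and Gkn3 (0.43), Nr2f2 (0.57) and Lcn2 (0.90), and Mfsd2a (-0.41) and Spock2 (0.22), all with adjusted p = 1.0.

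Between areas, endothelial lists likewise held 0 called genes, beside a median of -0.021 over all genes. The MEKK3, ERK5 and MEF2 pathway had 4 of 11 above 0, led by Mef2d (-0.39) and Mef2a (-0.24). The flow sensors had 6 of 7 above 0, led by Gna11 (0.17) and Plxnd1 (0.23). Genes raised by Klf2 or Klf4 had 4 of 6 above 0, among them the endothelial nitric oxide synthase gene Nos3, at 167 ± 14.4 CPM in the MC and 132 ± 14.6 CPM in the PFC (0.34, SE 0.20, adjusted p = 1.0), and Nov (-0.64). Genes lowered by them had 4 of 5 above 0, led by Vcam1 (0.59) and Angpt2 (0.09), and other Kruppel-like factors 4 of 7, led by Klf13 (0.40) and Klf3 (-0.32). Leukocyte markers had 0 of 5 above 0 (Tyrobp at -0.81 and Fcer1g at -1.14). Arterial genes had 3 of 8 above 0 (Gkn3 at -0.74 and Stmn2 at -0.27), venous genes 2 of 5 (Lcn2 at -2.35 and Slc38a5 at -0.31) and capillary genes 6 of 6 (Slc7a5 at 0.40 and Spock2 at 0.26).

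In PFC microglia 22 of 26 early response genes lay above 0 between genotypes (median 0.38 beside -0.047 over all genes), with Atf3 at 1.06 (SE 0.45) and Maff at 0.92 (SE 0.40), and 0 were called. All 5 genes that Klf2 or Klf4 lower in endothelium lay above 0 there (median 1.11), with the chemokine gene Ccl2 at 1.59 (SE 0.67) and Edn1, the endothelin gene, at 2.06 (SE 1.06). The other Kruppel-like factors had 1 of 6 above 0, with Klf10 at 0.66 (SE 0.35) and Klf3 at -0.58 (SE 0.38), and the MEKK3, ERK5 and MEF2 list 3 of 8, with Krit1 at -1.08 (SE 0.46) and Mapk7 at 0.65 (SE 0.50). None of these was called among the 6575 genes tested in microglia, of which 0.0% passed the threshold (116 had a raw p under 0.05, and DESeq2 called 0). In inhibitory neurons of the PFC the other Kruppel-like factors had 3 of 9 above 0, with Klf16 at 0.42 (SE 0.28) and Klf3 at -0.24 (SE 0.26), and 0 were called.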

How the data were processed

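Cells of the prefrontal and motor cortex were dissociated and captured with 10x Genomics 3' V2 chemistry, per the labels' protocols. The deposited tables hold counts of UMIs per gene and cell, whole numbers in every cell, and mm10, Cell Ranger 3.0.2 and Seurat are named in the submitters' processing notes without their roles. Every deposited cell had at least 501 genes and under 10% mitochondrial counts.

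Doublets called with Scrublet in scanpy 1.11.5 were removed (23 to 443 per library; in PFC DTA replicate 3 the 295 top scores, since the automatic threshold called 0). No batch correction was made, and the cells of the 7 libraries were clustered as 1 set (2000 variable genes, 30 components, 20 neighbours, leidenalg 0.10.2 at resolution 1.0), and clusters were named from fixed markers, at least 3 detected at 20 CPM and 2-fold. A limit of 0.45 on a second class was set after the clusters were seen. Names stand for cells like that type.

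UMIs were added up per class within a library. edgeR 4.0.16 was run on these sums with TMM size factors, genes passing filterByExpr (minimum 10), the robust quasi-likelihood test and an adjusted threshold of 0.05 (Benjamini-Hochberg). SEs come from its F statistic, the size of the log2 change over the root of F. DESeq2 1.42.0 was a second tool. The test was also run on simulated counts with the same spread set for every gene. In the real sums the spread differs between genes, so that run does not give the error rates of these data. CPM use the class's own total.

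The 3 genes and the 10 gene lists were chosen with earlier results of these data known. Genes outside the 3 are named by rule: the 5 most alike with a mean of at least 20 CPM, called list members or the 2 with the smallest p, and Kruppel-like factors at 20 CPM. In inhibitory neurons and microglia the other lists also held 0 called genes by genotype, and their leads are not described. Gene positions are from GENCODE, promoter windows from RefSeq.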

Additional observations from a re-analysis of the deposited data

Results flagged for a closer look

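Among the 5 PFC libraries, a value was singled out where its gap to the nearest other library, divided by the range, was above Dixon's 95% critical value of 0.71. This held in 6 of 24 pairs of gene and class, where chance gives about 1 in 20 for independent groups. The pairs share libraries, and 2 of these values helped to choose the genes, so nothing is read from the number. Endothelial Klf2 stood at 7552 CPM in PFC CTRL replicate 1, against 2533 to 3638 CPM in the others. PFC DTA replicate 3 stood apart 4 times. It had 63.8 CPM of Klf4 in inhibitory neurons (others 7.97 to 22.9), 147 CPM of Klf6 in inhibitory neurons (others 80.3 to 97.6), 103 CPM of Klf2 in oligodendrocyte precursors (others 27.9 to 45.1) and 118 CPM of Klf4 in oligodendrocyte precursors (others 4.81 to 30.02). Klf6 in newly formed oligodendrocytes was lowest in PFC DTA replicate 2, at 53.9 CPM, against 119 to 139 CPM in the others. PFC DTA replicate 3 was also the library with 2288 of the 3567 unnamed cells and the highest summed early response genes in inhibitory neurons.

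In 2 pairs whose PFC libraries did not overlap, the MC libraries did not show the same order. Endothelial Klf2 had a log2 fold change of DTA over CTRL of -0.85 in the PFC and a log2 ratio of 0.24 in the MC. Klf4 in excitatory neurons had 1.25 in the PFC and -0.026 in the MC, which is 0.004 with the TMM scaling of the PFC fit and has a counting interval of -0.68 to 0.62, so no opposite sign is shown. With 1 MC library of each genotype, of which only MC DTA is deep, the difference between areas was not tested.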

How the results depend on the processing

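Between PFC genotypes 0 genes were called in each class described. Without a filter on low counts 3 were called in endothelium, 14 in inhibitory neurons and 6 in microglia. With the replicate number as a block 1 was called in endothelium, 37 in inhibitory neurons and 17 in microglia. The genotypes share 2 numbers, whose deviations correlated at 0.242 and 0.191 in endothelium, 0.087 and 0.06 in inhibitory neurons and 0.122 and 0.119 in excitatory neurons. The values were 0.15 and 0.091 in oligodendrocytes and 0.25 and 0.164 in newly formed ones. They were 0.229 and -0.2 in microglia, 0.228 and -0.061 in astrocytes and 0.026 and -0.036 in oligodendrocyte precursors. Unlike numbers, CTRL 2 and DTA 3, reached 0.399 in microglia. The deviations of 2 CTRL libraries mirror each other, so the values of a class are not independent. The labels do not say what a number stands for. Leaving out 1 library gave 0 to 11 calls in endothelium (11 without CTRL replicate 1, 8 without CTRL replicate 2), 0 to 35 in inhibitory neurons (35 without CTRL replicate 1) and 0 to 6 in excitatory neurons. It gave up to 146 in oligodendrocytes (without CTRL replicate 1, and 36 without CTRL replicate 2), 44 in oligodendrocyte precursors (without CTRL replicate 1), 6 in astrocytes and 5 in newly formed oligodendrocytes, the last with 67 under the block. Between areas, endothelium went to 6 calls without a filter. Inhibitory neurons, with 254, had 491 without a filter, 167 by DESeq2 and 15 to 439 with 1 library left out (15 without MC DTA, 32 without MC CTRL, 157 without PFC CTRL replicate 2, 439 without PFC DTA replicate 2). Excitatory neurons, with 782, had 88 to 914, with 99 without MC DTA and 88 without MC CTRL.

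Of the 22 pairs of gene and class tested by area, 2 were called, 4 by DESeq2, 1 without the genotype term, 1 without the activity-gene cluster and 0 to 3 with 1 library left out. For Klf4 in excitatory neurons the log2 fold change of MC over PFC was -1.999 without a filter, -2.22 without the genotype term, -1.34 without the activity-gene cluster and -2.61 to -1.38 with 1 library left out. For Klf6 in inhibitory neurons it was -1.07 to -0.73 with 1 library left out. With a term for the deep libraries, chosen after seeing the data, both stayed called (adjusted p = 0.0124 and 0.0252). The causes were not tested. Where 1 MC library was left out, the remaining one was assumed to vary like the PFC libraries.

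Shares of cells with a UMI depend on depth. Thinned to 2000 UMIs and unthinned they were 97.8% and 91.7% for Klf2, 84.0% and 74.99% for Klf4 and 66.2% and 59.9% for Klf6 in endothelium, and 1.55% and 3.91%, 2.28% and 4.64%, and 13.5% and 27.1% in inhibitory neurons. Endothelial Klf2 in the MC had a log2 ratio of 0.34 with TMM scaling, and the other 23 of 24 ratios stayed inside their intervals. Of 269 recomputed genotype values of the 3 genes, from 18 pairs of gene and class, 248 moved by at most 1 SE, 21 by more, and 20 took the other sign. Of 269 recomputed area values of pairs not called, 263 kept their side of the threshold and 6 passed it only in the alternative. Neither count covers newly formed oligodendrocytes or oligodendrocyte precursors. At resolution 0.5 the endothelium merged with red blood cells and gave no value. The labels give 1 MC library per genotype and 2 PFC CTRL libraries, which limits all comparisons.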

Other observations

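The 3567 cells that stayed unnamed held 399 CPM of Klf2 (95% Poisson interval 381 to 417), 209 CPM of Klf4 (196 to 222) and 149 CPM of Klf6 (139 to 160), summed over all libraries. Among them 159 cells formed a cluster with red blood cell markers first and endothelial markers second (score 0.532). The part of that cluster in the unnamed levels was not counted, so they are not the levels of a single cell type. The 74 cells like T or B lymphocytes held 337 CPM of Klf2 (254 to 439), 110 CPM of Klf4 (65.4 to 174) and 245 CPM of Klf6 (175 to 333). Klf2 is known to keep T cells quiescent and circulating. Both sums mix libraries, and their intervals cover counting error only.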
